A study of Mus musculus with 76 samples.

Results

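The mTOR kinase works in 2 protein complexes, and the transcripts of those complexes and of the proteins nearest to them were followed in visceral white adipose tissue (WAT) and liver of mice that carry either allele of an edited site in *Fnip2*. The 10 genes were chosen by name. They are *Mtor*, *Rptor*, *Rictor*, *Mlst8*, *Akt1s1*, *Deptor*, *Rps6kb1*, *Eif4ebp1*, *Eif4ebp2* and *Tsc2*, and all 10 were found among the 18964 entries of the WAT table and the 16775 entries of the liver table. All 10 also passed the filter on low values in both tissues, a mean normalized count of at least 10. A normalized count is the number of reads of a gene divided by 1 size factor per library.

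The mice were females fed a standard chow ad libitum, and the ages of the sequenced animals were not given in the sources used here. Fnip2C/C mice are homozygous for a CRISPR/Cas9 knock-in on a C57BL/6 background that changes T to C in the 3′ untranslated region of *Fnip2* and also replaces a nearby G by C to destroy the cutting site. Fnip2T/T mice keep the ancestral allele. The edit stands in every cell of the animal, so neither tissue is edited on its own, and each genotype was compared as whole tissue. WAT came from 4 Fnip2C/C mice (590, 593, 599 and 638) and 5 Fnip2T/T mice (607, 608, 609, 657 and 658). Liver came from 5 Fnip2C/C mice (590, 591, 592, 638 and 639) and 5 Fnip2T/T mice (607, 608, 657, 658 and 659), and 6 mice gave both tissues. The 2 alleles differ inside a site for miR-181b-5p. Its RefSeq sequence (annotation of build GRCm38.p6) is shown because its seed, bases 2 to 8 in capitals, is predicted to pair with the T allele.
mmu-miR-181b-5p: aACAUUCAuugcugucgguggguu

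As background, mTOR is a serine/threonine kinase that couples nutrients and growth factors to cell growth. In mTOR complex 1 (mTORC1) it is held by Raptor (*Rptor*), which brings in the substrates, and in mTOR complex 2 (mTORC2) by Rictor (*Rictor*). mLST8 (*Mlst8*) belongs to both complexes, DEPTOR (*Deptor*) is an inhibitor that binds mTOR itself, and PRAS40 (*Akt1s1*) is an inhibitor and substrate bound to Raptor. S6 kinase 1 (*Rps6kb1*) and the 4E-binding proteins (*Eif4ebp1* and *Eif4ebp2*), which hold back cap-dependent translation until mTORC1 phosphorylates them, are the classical mTORC1 substrates. Tuberin (*Tsc2*) is the GTPase-activating subunit that switches off Rheb, the activator of mTORC1 on the lysosome. The FLCN–FNIP complex, to which the edited gene belongs, acts on the Rag GTPases that bring mTORC1 to the lysosome. In adipocytes mTORC1 favours lipid storage and mTORC2 acts on insulin signaling through AKT. Much of this regulation runs through protein binding and phosphorylation, whereas the data described here are transcript levels only.

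Reads recovered per library ranged from 4180209 to 6277644 in WAT and from 5583041 to 7523200 in liver. Hepatocyte markers summed to between 88350 and 120100 CPM in liver, and adipocyte markers to between 4343 and 20240 CPM in WAT. CPM stands here for the reads of a gene after every library is scaled to the same total of recovered reads. In WAT the adipocyte sum (8 of 8 markers found) was 4343 to 11100 CPM in Fnip2C/C and 13450 to 20240 CPM in Fnip2T/T, without overlap, and the endothelial sum was 304 to 478 CPM against 481 to 817 CPM. Hepatocyte markers (6 of 7 found) also separated the genotypes in WAT, at 48.6 to 130 CPM in Fnip2C/C and 173 to 702 CPM in Fnip2T/T. Among them *Apob* stood at 0 in every Fnip2T/T library, the group with the higher sum. The macrophage sum reached higher in Fnip2C/C, at 483 to 1154 CPM against 480 to 750 CPM with overlap. So did the lymphocyte sum (3 of 5 markers found), at 3.89 to 11.7 CPM against 1.27 to 4.15 CPM, also with overlap. These lymphocyte sums are low and rest on few reads. Ovary markers (9 of 12 found) summed to 4885 CPM in the WAT of mouse 593, a Fnip2C/C animal. The other Fnip2C/C libraries stood at 23.9 to 28.95 CPM and the Fnip2T/T libraries at 25.1 CPM at most. In the Fnip2T/T libraries *Fshr* and *Cyp19a1* stood at 0. Skeletal muscle markers (4 of 4 found) summed to 382 CPM in the WAT of mouse 609, a Fnip2T/T animal, against 4.30 to 59.7 CPM in the other WAT libraries. The part of these marker differences in any WAT result was not tested, and in whole tissue fewer cells of a type and less RNA per cell cannot be told apart. In WAT every Fnip2C/C library carries an even RNA number and every Fnip2T/T library an odd one, so that this numbering and the genotype cannot be told apart there. The edited gene had a mean normalized count of 22.8 ± 7.0 (SD, n = 4) in Fnip2C/C WAT and 28.3 ± 10.5 (SD, n = 5) in Fnip2T/T WAT, and of 155 ± 29.2 and 104 ± 33.2 (SD, n = 5 each) in liver. In log2 units the genotype difference of *Fnip2* was −0.27 (limma adjusted p = 0.580) in WAT and 0.63 (limma p = 0.0148, adjusted p = 1.00) in liver.

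The first question was whether the transcripts of the mTOR complexes differ between the genotypes in WAT. *Rictor* and *Tsc2* were higher in Fnip2C/C WAT, 1.51-fold and 1.55-fold, and the other 8 genes did not pass the test. Thus 2 of 10 genes were called at a limma adjusted p under 0.05, against 32.1% of the 12798 genes tested in WAT, and 3 of 10 had an unadjusted p under 0.05, against 43.9%. The median absolute log2 difference of the 10 genes was 0.38, against 0.54 over all genes tested, and for none of the 10 were the 2 genotypes free of overlap, against 26.1% of all genes.

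**Figure D1:**
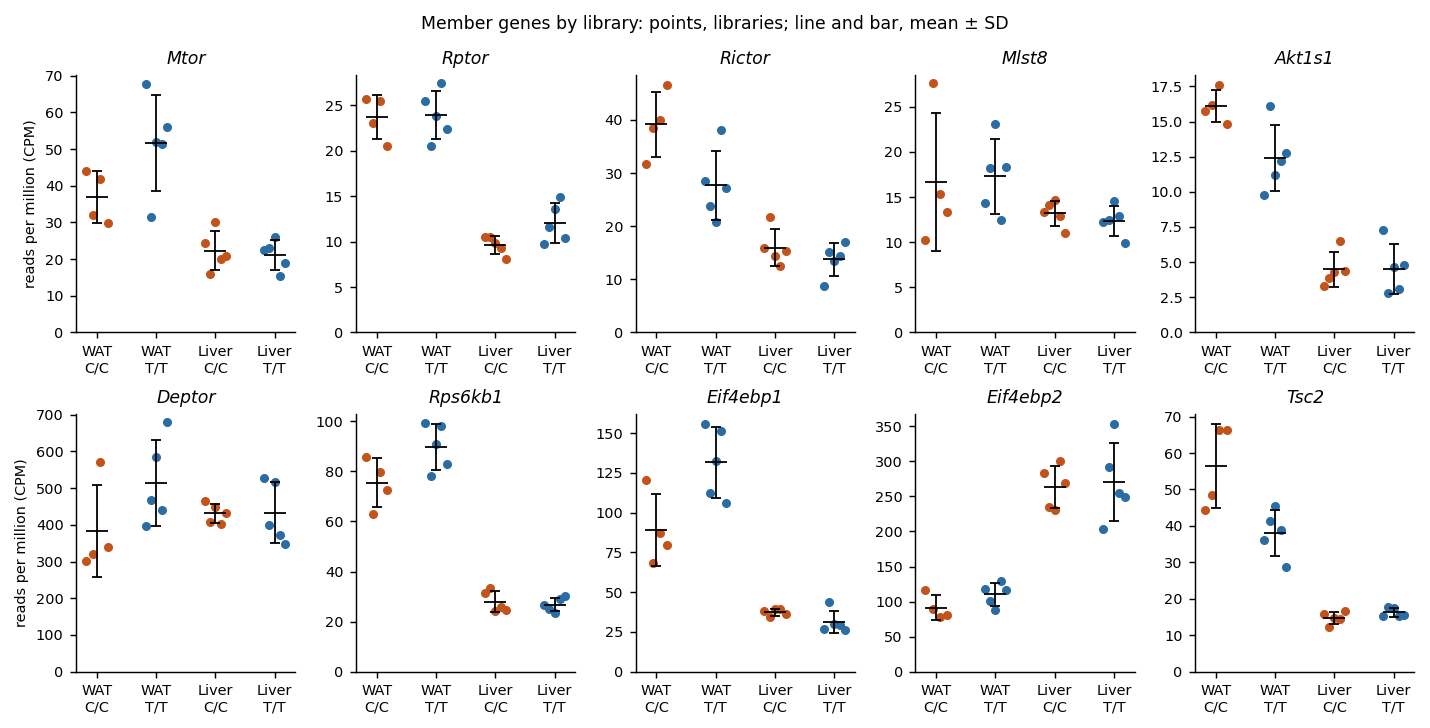
CPM of each of the 10 genes in every library (points, orange for Fnip2C/C and blue for Fnip2T/T), with the mean and SD of each group, for WAT (n = 4 and 5) and liver (n = 5 and 5); each panel has its own axis from 0. *Rictor* and *Tsc2* average higher in Fnip2C/C WAT with overlapping ranges, and *Eif4ebp2* is the gene whose liver libraries, at 203 to 354 CPM, all lie above its WAT libraries, at 77.4 to 130 CPM.

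*Rictor*, the defining subunit of mTORC2, had normalized counts of 161, 167, 192 and 228 in the Fnip2C/C WAT of mice 590, 593, 599 and 638. In Fnip2T/T WAT its normalized counts were 117, 109, 102, 164 and 129.6 in mice 607, 608, 609, 657 and 658. The ranges overlap through a single animal, since only mouse 657 among the Fnip2T/T mice rose above the lowest Fnip2C/C mouse. The log2 difference of *Rictor* was 0.59 ± 0.19 (SE, 95% interval 0.18 to 1.00, limma adjusted p = 0.0316). Its call was lost when mouse 599, 638, 607, 608, 609 or 658 was left out, with limma adjusted p-values of 0.0523 to 0.0833 over these 6, and when the libraries were scaled to the same total (0.52, adjusted p = 0.0746).

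*Tsc2*, the brake on Rheb, had normalized counts of 225, 211, 319 and 324 in the same 4 Fnip2C/C mice, and 149, 189.7, 221, 168 and 136 in the 5 Fnip2T/T mice. Mice 599 and 638 stood clearly above the other libraries, whereas mice 590 and 593 lay near the highest Fnip2T/T mouse, 609. The log2 difference of *Tsc2* was 0.63 ± 0.20 (SE, 95% interval 0.19 to 1.07, limma adjusted p = 0.0313). Without mouse 599, 638, 607, 657 or 658 the adjusted p lay between 0.0629 and 0.0923. On the reads themselves, edgeR and DESeq2 called both genes, with adjusted p-values of 0.0425 and 0.0189 for *Rictor* and 0.0336 and 0.0140 for *Tsc2*. Without mouse 593, the library with ovary transcripts, the log2 differences were 0.64 for *Rictor* and 0.74 for *Tsc2* (limma adjusted p = 0.0365 and 0.0213). Both differences had the same sign within the mice numbered under 610 (0.66 and 0.42, 3 against 3) and over 630 (0.65 and 1.10, 1 against 2). *Tsc2* overlaps *Pkd1*, which is read from the opposite strand, by 693 bases at its 3′ end (GENCODE vM21, GRCm38), and the strand setting of the counting was not given in the sources used here. *Pkd1* itself had a log2 difference of 0.25 (limma adjusted p = 0.264) in WAT.

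**Figure D2:**
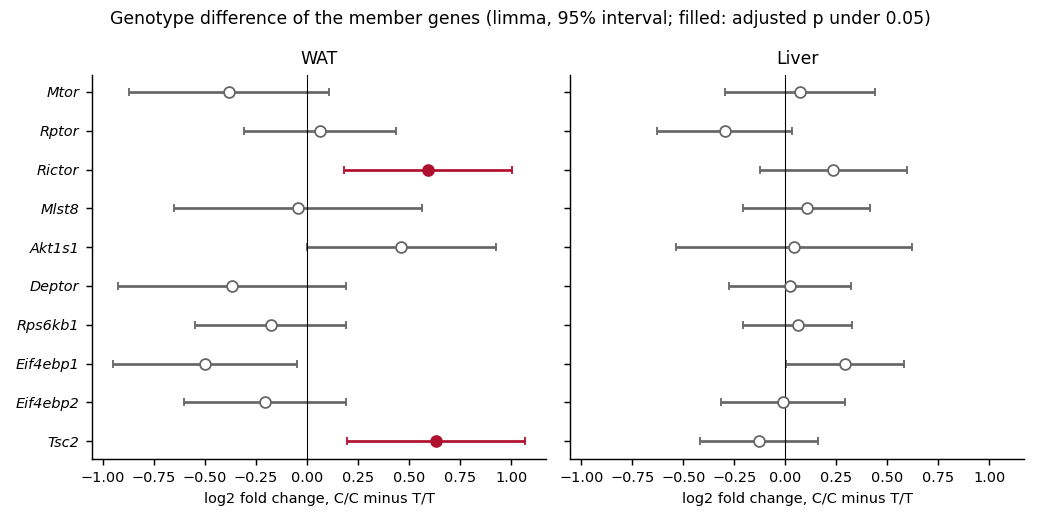
Log2 difference between genotypes (Fnip2C/C minus Fnip2T/T, horizontal axis) of each gene in WAT and in liver, with the 95% interval from limma; filled red points have an adjusted p under 0.05. In WAT only *Rictor* (0.59) and *Tsc2* (0.63) are filled, and in liver no gene is.

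**Figure D3:**
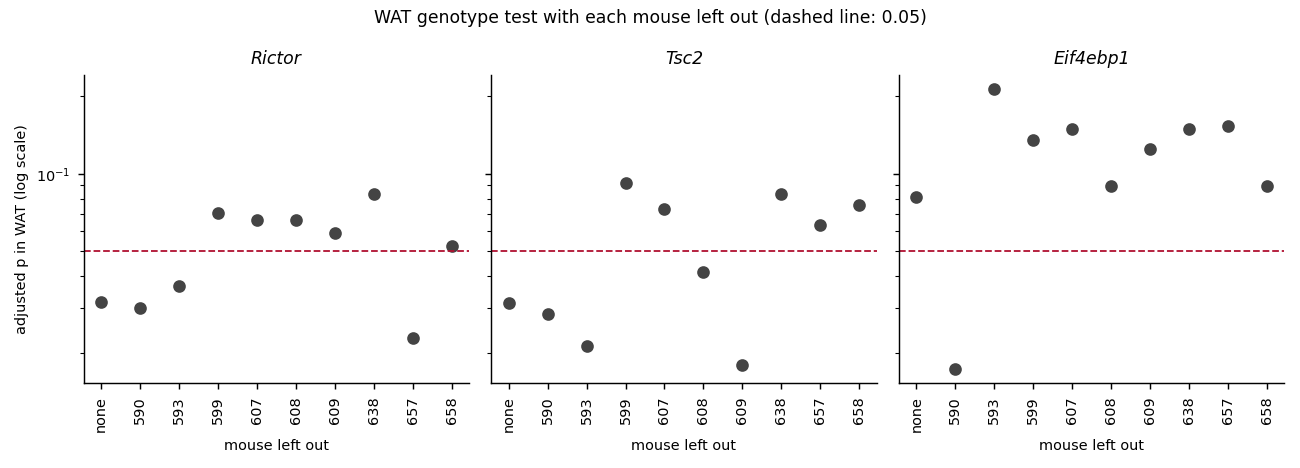
Limma adjusted p of *Rictor*, *Tsc2* and *Eif4ebp1* in WAT (logarithmic vertical axis) with all 9 mice ("none") and with each mouse left out; the dashed line is 0.05. *Rictor* lies above the line for 6 of the 9 mice left out, *Tsc2* for 5, and *Eif4ebp1* falls under it only without mouse 590, at 0.0173.

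Of the kinase and the subunits both complexes share, *Mtor* had normalized counts of 223, 139, 201 and 146 in Fnip2C/C WAT and 279, 145, 252, 221 and 266 in Fnip2T/T WAT. Mouse 608 was the low library among the Fnip2T/T animals, and of the other 4 only mouse 657 lay below the highest Fnip2C/C library, mouse 590. Its log2 difference was −0.38 (95% interval −0.87 to 0.11, limma adjusted p = 0.211). *Mlst8* spread widely within both genotypes, from 51.7 to 119.8 in Fnip2C/C and from 53.5 to 113 in Fnip2T/T, and its log2 difference was −0.05 (95% interval −0.65 to 0.56). *Rptor*, the defining subunit of mTORC1, varied little in WAT. Its normalized counts were 131, 100.1, 122 and 101 in Fnip2C/C and 105, 94.4, 116, 118 and 107 in Fnip2T/T. Between genotypes it differed by a log2 of 0.06 (95% interval −0.31 to 0.44).

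Among the inhibitors in WAT, *Akt1s1* had normalized counts of 80.0, 70.2, 84.5 and 72.6 in Fnip2C/C and 40.2, 73.9, 54.7, 52.6 and 60.6 in Fnip2T/T. All Fnip2C/C libraries lay above 4 of the 5 Fnip2T/T libraries, and mouse 608 was again the exception. On the log2 scale *Akt1s1* differed by 0.46 (95% interval −0.00018 to 0.92, limma p = 0.0501, adjusted p = 0.114). *Akt1s1* was counted from 49 to 80 reads per WAT library, for which the counting error of a single library is 11.2% to 14.3%. *Deptor* ranged from 1387 to 2740.1 in Fnip2C/C and from 1631 to 3241 in Fnip2T/T, with a log2 difference of −0.37 (95% interval −0.93 to 0.19, limma adjusted p = 0.292).

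Of the substrates, *Eif4ebp1* came nearest to a call in the direction opposite to *Rictor* and *Tsc2*. Its normalized counts were 612, 296, 419 and 390.0 in Fnip2C/C WAT and 641, 517, 645, 651 and 505 in Fnip2T/T WAT. Mouse 590 lay among the Fnip2T/T libraries, and the other 3 Fnip2C/C mice lay below all of them. The log2 difference of *Eif4ebp1* was −0.50 ± 0.21 (SE, 95% interval −0.95 to −0.05, limma p = 0.0316, adjusted p = 0.0813). It passed the threshold with quantile normalization (−0.62, adjusted p = 0.0389) and with libraries scaled to the same total (−0.58, adjusted p = 0.0426), and it shrank to −0.34 (adjusted p = 0.215) without mouse 593. Within the mice numbered under 610 it was −0.50 and over 630 it was −0.55. *Eif4ebp2* (log2 difference −0.21, 95% interval −0.60 to 0.19) and *Rps6kb1* (−0.18, 95% interval −0.55 to 0.19) did not pass the test. *Rps6kb1* meets *Rnft1* tail to tail over 155 bases, and *Rnft1* had a log2 difference of −0.67 (limma adjusted p = 0.0504) in WAT.

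The same question was put to liver, where no gene was called by limma, edgeR or DESeq2 among 11710 tested (0%), and 231, 249 and 225 genes had an unadjusted p under 0.05. By limma that is 1.97% of all genes, and 1 of the 10 genes described here. The 10 genes had a median absolute log2 difference of 0.09, against 0.11 over all genes. All their genotype groups overlapped, where 0.248% of all genes had groups free of overlap. *Eif4ebp1* had the lowest p of the 10. Its normalized counts in Fnip2C/C liver were 249, 224, 258, 274 and 262 in mice 590, 591, 592, 638 and 639, and in Fnip2T/T liver 189.6, 284, 202, 202 and 169 in mice 607, 608, 657, 658 and 659. All Fnip2C/C livers lay above 4 of the 5 Fnip2T/T livers, with mouse 608 the highest of all. In liver its log2 difference was 0.29 ± 0.14 (SE, 95% interval 0.0054 to 0.58, limma p = 0.0463, adjusted p = 1.00). It was 0.069 within the mice numbered under 610 (3 against 2) and 0.49 over 630 (2 against 3), and 0.25 and 0.37 within even and odd RNA numbers.

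*Rptor* in liver had normalized counts of 68.6, 68.8, 64.7, 65.2 and 58.1 in Fnip2C/C and 68.9, 75.5, 92.7, 102 and 66.8 in Fnip2T/T. Mice 657 and 658 stood above the other 8 livers, among which the Fnip2T/T livers reached 75.5 and the Fnip2C/C livers 68.8. The difference was −0.30 on the log2 scale (95% interval −0.63 to 0.03, limma p = 0.0737, adjusted p = 1.00). *Rictor* ranged from 87.9 to 142 in Fnip2C/C and from 62.3 to 109 in Fnip2T/T liver, a log2 difference of 0.23 (95% interval −0.13 to 0.59). *Tsc2* was 80.5 to 120.4 in Fnip2C/C and 99.3 to 119 in Fnip2T/T liver, a log2 difference of −0.13 (95% interval −0.42 to 0.16). The liver differences of *Mtor*, *Mlst8*, *Akt1s1*, *Deptor*, *Rps6kb1* and *Eif4ebp2* lay between −0.01 and 0.10. *Akt1s1* rested on 19 to 55 reads per liver, for which the counting error of a single library is 13.5% to 22.9%, and its log2 difference of 0.04 had a 95% interval of −0.53 to 0.62.

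An interaction term over all 19 libraries asked whether a genotype difference was unequal in the tissues. *Eif4ebp1* and *Tsc2* passed, 2 of 10 genes against 29.2% of the 10404 genes tested. The same 2 of 10 had an unadjusted p under 0.05, against 40.4%. The *Eif4ebp1* difference was −0.50 in WAT and 0.29 in liver, and the WAT difference minus the liver difference was −0.80 ± 0.24 (SE, 95% interval −1.30 to −0.29, limma adjusted p = 0.0182). For *Tsc2* the differences were 0.63 and −0.13, and the WAT difference minus the liver difference was 0.76 ± 0.24 (SE, 95% interval 0.28 to 1.25, limma adjusted p = 0.0188). *Rictor* was higher in Fnip2C/C in both tissues and its interaction was 0.36 (95% interval −0.18 to 0.89, limma adjusted p = 0.305), so that a call in WAT alone did not amount to a difference between tissues. When mouse was a fixed block over the 6 mice with both tissues, neither gene was called (*Eif4ebp1* −0.50, adjusted p = 0.370, and *Tsc2* 0.88, adjusted p = 0.0977). Without mouse 638 no gene of the 10 passed the interaction test, and without mouse 607 only 1 did.

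Raptor and Rictor bind the same kinase in separate complexes, and the ratio of their transcripts inside a library, taken as (normalized count + 1), hardly depends on the size factor. The Rptor/Rictor ratio was lower in Fnip2C/C mice in both tissues, by 1.44-fold in WAT and 1.45-fold in liver, but neither difference passed the adjustment over the 6 ratio tests. In WAT the ratio was 0.811, 0.604, 0.640 and 0.443 in Fnip2C/C mice 590, 593, 599 and 638, and 0.896, 0.867, 1.14, 0.723 and 0.826 in Fnip2T/T mice 607, 608, 609, 657 and 658. Only mouse 590 of the Fnip2C/C animals lay above the lowest Fnip2T/T library, mouse 657. The mean log2 ratio was −0.71 ± 0.36 (SD, n = 4) against −0.18 ± 0.24 (SD, n = 5), with an exact two-sided permutation p = 0.0317 and a Benjamini-Hochberg adjusted p = 0.143.

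In liver the Rptor/Rictor ratio was 0.664, 0.488, 0.686, 0.744 and 0.533 in Fnip2C/C mice 590, 591, 592, 638 and 639, and 1.10, 0.769, 1.01, 1.04 and 0.619 in Fnip2T/T mice 607, 608, 657, 658 and 659. Mouse 659 lay among the Fnip2C/C livers, and the other 4 Fnip2T/T livers lay above all of them. The mean log2 ratio was −0.70 ± 0.26 against −0.17 ± 0.36 (SD, n = 5 each, exact two-sided permutation p = 0.0476, adjusted p = 0.143). The 2 tissues share 6 mice and are not independent samples of the genotype. The smallest p that the design allows is 0.0159 in WAT and 0.00794 in liver. The liver difference was −0.22 among the libraries with even RNA numbers (2 against 3) and −0.89 among those with odd numbers (3 against 2), and the differences by mouse number were −0.61 (under 610) and −0.46 (over 630). In WAT they were −0.50 under 610 and −0.80 over 630.

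The other 2 ratios did not pass either. The Eif4ebp1/Eif4ebp2 ratio differed by −0.30 in WAT and by 0.31 in liver on the log2 scale (exact permutation p = 0.143 and 0.0873, adjusted p = 0.214 and 0.175). The Deptor/Mtor ratio differed by 0.01 in WAT and −0.05 in liver (exact permutation p = 0.984 and 0.746).

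**Figure D4:**
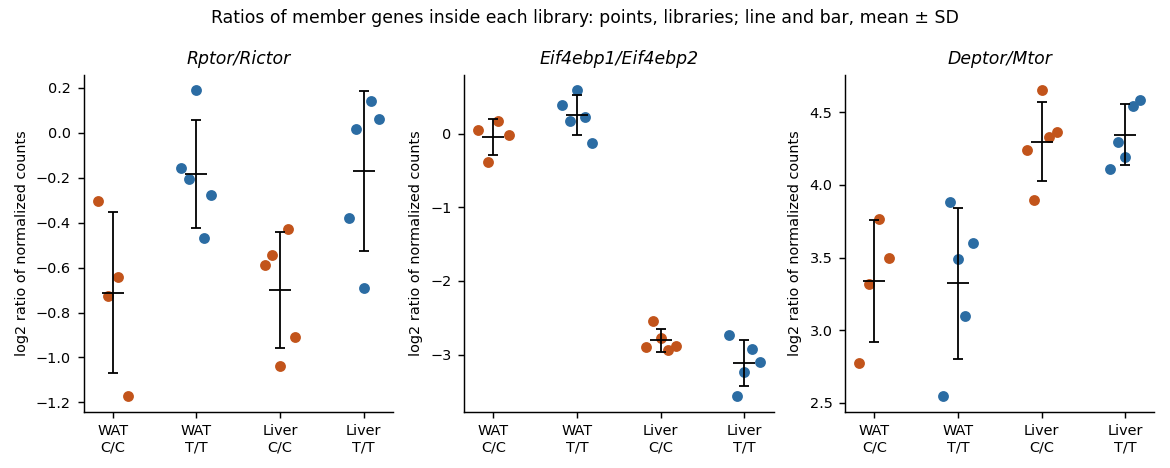
Log2 ratio of the normalized counts of 2 genes inside each library (points, orange for Fnip2C/C and blue for Fnip2T/T), with the mean and SD per group, for Rptor/Rictor, Eif4ebp1/Eif4ebp2 and Deptor/Mtor in WAT (n = 4 and 5) and liver (n = 5 and 5). The Rptor/Rictor ratio averages −0.71 and −0.70 in the Fnip2C/C groups and −0.18 and −0.17 in the Fnip2T/T groups.

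Between tissues, levels are given in CPM as a description, because the tables were normalized separately. *Eif4ebp2* was the only one of the 10 genes clearly higher in liver, at 267 CPM on average against 102 CPM in WAT, 2.62-fold and in 6 of 6 mice with both tissues, with no library overlapping. *Eif4ebp1* ran the other way, at 113 CPM in WAT and 34.3 CPM in liver, 3.28-fold, again without overlap. The 2 translation repressors therefore took opposite places in the tissues, and the Eif4ebp1/Eif4ebp2 ratio was 0.762 to 1.51 in WAT libraries and 0.0844 to 0.171 in livers.

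*Akt1s1* (14.1 against 4.50 CPM, 3.12-fold), *Rps6kb1* (83.4 against 27.4 CPM, 3.05-fold), *Tsc2* (46.2 against 15.5 CPM, 2.98-fold) and *Rptor* (23.9 against 10.8 CPM, 2.20-fold) were higher in every WAT library than in any liver. *Rictor* (32.8 against 14.8 CPM) and *Mtor* (45.1 against 21.7 CPM) were higher in WAT in 6 of 6 mice, with some overlap between libraries. On the deposited normalized counts *Mtor* and *Akt1s1* were each higher in liver in 1 of 6 mice. On that scale libraries of the tissues also overlapped for *Akt1s1* (liver up to 51.9, WAT from 40.2) and *Rptor* (liver up to 102, WAT from 94.4). *Mlst8* was 17.0 CPM in WAT and 12.8 CPM in liver and was higher in liver in 2 of 6 mice, but on the deposited normalized counts it was higher in liver in 5 of 6, with a median log2 of liver over WAT of 0.51 in place of −0.14. *Deptor* was 456 and 432 CPM and was higher in liver in 4 of 6 mice (median log2 0.24), or in 5 of 6 on normalized counts (0.83). Within a tissue the genotypes overlapped for all 10 genes.

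Within a tissue, and with the genotype means removed, *Rps6kb1* and *Eif4ebp1* varied together over the 9 WAT libraries (Pearson r = 0.93), and each followed *Rptor* (r = 0.84 and 0.80). *Mlst8* varied against *Eif4ebp1* in WAT (r = −0.70). In the 10 livers *Mtor* and *Rps6kb1* varied in opposite directions (r = −0.80), where in WAT their r was 0.72. These are descriptions over libraries that share their tissue sampling and normalization. The genes most like 3 of the members were then picked by r from the 12798 genes tested in WAT and the 11710 tested in liver. A search this wide over 9 or 10 libraries gives high r by itself, and no likeness was tested. An r over 0.9 was reached by 8 to 24 genes in WAT and by 5 to 28 in liver. For *Mtor*, by the same measure, they were *Ppp1r13l* (r = 0.97), *Cnot9* and *5730414N17Rik* in WAT and *Prelp* (r = 0.98), *Cables2* and *Disp2* in liver. For *Rptor* they were *Rmi1* (r = 0.95), *Saraf* and *Ppt2* in WAT and *Spata6l* (r = 0.97), *Fendrr* and *Bcl6* in liver. *Arhgef10* (r = 0.96), *Muc16* and *Slc39a8* in WAT and *Secisbp2l* (r = 0.96), *Ptpn12* and *Bptf* in liver were most like *Rictor*. *Muc16* is one of the mesothelium markers, whose sum over the list was 86.1 to 249 CPM in Fnip2C/C and 57.1 to 232 CPM in Fnip2T/T WAT.

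Around these 10 genes stood 59 other genes of the pathway in 8 lists, of which 55 were tested in WAT. In WAT, 7 were higher in Fnip2C/C and 12 lower (12.7% and 21.8%), where 15.1% of all genes were called higher and 17.0% lower. The single lists hold too few genes to set beside these shares. In total 19 of 55 were called (34.5%), against 32.1% of all genes tested. Without mouse 593 the total was 18. Their median log2 difference was −0.16, against 0.02 over all genes. In liver 0 of 55 were called by limma. Log2 differences in WAT reached from −2.61 to 1.14 over the 55 genes tested, and from −0.50 to 0.63 over the 10 genes above. A range widens with the number of genes, and these 2 ranges were not compared by a test.

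**Figure D5:**
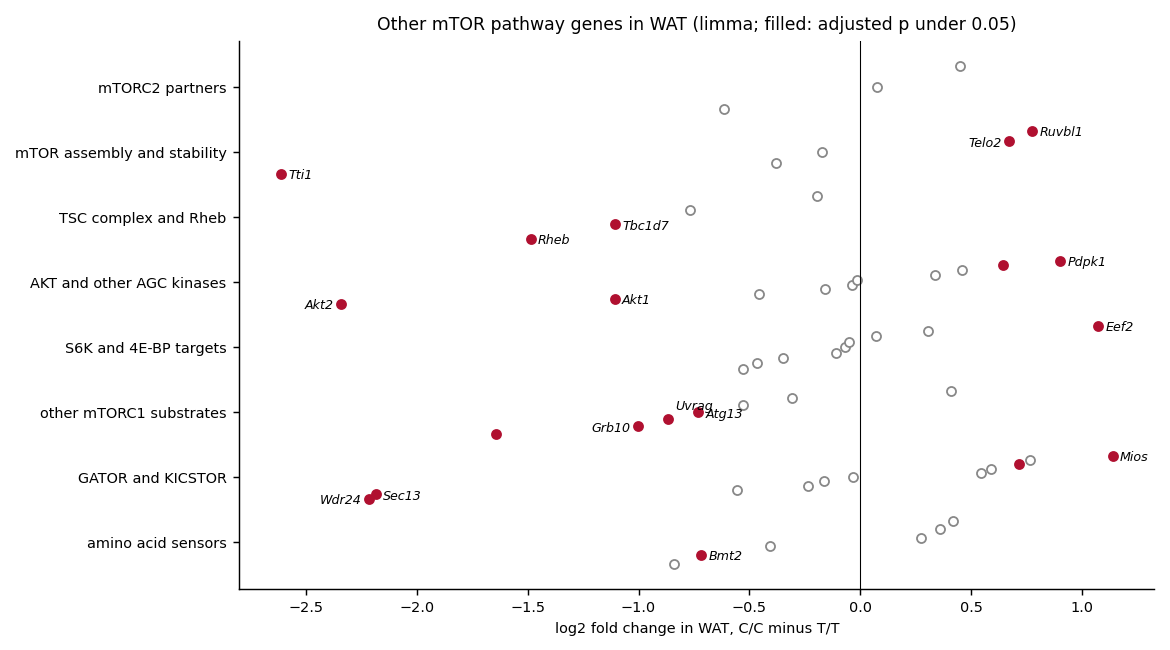
Log2 difference in WAT (Fnip2C/C minus Fnip2T/T, horizontal axis) of the 55 other pathway genes tested, by list; filled red points have a limma adjusted p under 0.05, and up to 3 of them per list are named. *Tti1* (−2.61), *Akt2* (−2.34), *Wdr24* (−2.21) and *Sec13* (−2.18) lie farthest to the left, and *Mios* (1.14) and *Eef2* (1.07) farthest to the right.

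In the list of mTOR assembly and stability, 3 of 5 genes were called, in both directions, against 32.1% of all genes tested. *Telo2* and *Tti1*, which act together with Tti2 as a chaperone complex for kinases of the mTOR family, went opposite ways. *Telo2* was 127 to 190.0 in Fnip2C/C and 90.4 to 102 in Fnip2T/T WAT, a log2 difference of 0.67 ± 0.17 (SE, adjusted p = 0.0111). *Tti1* was 1.17 to 27.1 in Fnip2C/C and 51.4 to 131 in Fnip2T/T WAT, a log2 difference of −2.61 ± 0.64 (SE, adjusted p = 0.00964), with the lowest value, a single read, in mouse 638. *Ruvbl1*, an ATPase of the complex that works with them, was higher by 0.77 (adjusted p = 0.0323) and lost its call without mouse 638, 607 or 657 (adjusted p = 0.0921, 0.0787 and 0.0523).

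In the list for the TSC complex and Rheb, 2 of 4 genes were called and both were lower, where 17.0% of all genes were called lower. *Rheb*, the small GTPase that activates mTORC1 and on which tuberin acts, was 22.3 to 75.3 in Fnip2C/C and 118 to 160.0 in Fnip2T/T WAT, a log2 difference of −1.49 ± 0.30 (SE, adjusted p = 0.00326). *Tbc1d7*, the third subunit of the TSC complex, was 7.03 to 14.1 in Fnip2C/C and 18.8 to 31.3 in Fnip2T/T WAT, and fell by 1.11 on the log2 scale (adjusted p = 0.0194, and 0.0503 without mouse 638). *Tsc2* was higher in the same tissue, with a call that was lost in 5 of the 9 fits with a mouse left out. *Tsc1*, of the same list, was not called (−0.19, limma adjusted p = 0.406).

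Of 10 tested genes for AKT and other AGC kinases, 2 were higher and 2 lower, against 15.1% and 17.0% of all genes. *Akt2*, the AKT isoform best known for insulin action in fat, had normalized counts of 260, 90.8, 186 and 48.0 in Fnip2C/C mice 590, 593, 599 and 638, and of 502, 715, 862, 494 and 580 in the Fnip2T/T mice 607, 608, 609, 657 and 658. No Fnip2C/C library came near the lowest Fnip2T/T library, and the log2 difference was −2.34 ± 0.40 (SE, adjusted p = 0.00174). *Akt1*, with groups that almost touch at 39.0 and 39.1, fell by 1.11 (adjusted p = 0.0274) and lost its call without mouse 638, 607, 657 or 658 (adjusted p = 0.0668 to 0.0709). *Pdpk1*, which encodes PDK1, the kinase that phosphorylates the activation loop of AKT and S6K, was 500 to 818 in Fnip2C/C and 330 to 408 in Fnip2T/T, a log2 difference of 0.90 ± 0.18 (SE, adjusted p = 0.00326). Of the mTORC2 partners 0 of 3 were called, too few genes to set beside the 32.1% over all genes.

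In the list of S6K and 4E-BP targets, 1 of 9 genes was called, against 32.1% of all genes tested. *Eef2*, elongation factor 2, was 7679 to 13992 in Fnip2C/C and 4443 to 5153 in Fnip2T/T WAT, a log2 difference of 1.07 ± 0.21 (SE, adjusted p = 0.00330). Among other mTORC1 substrates, 4 of 7 were called and all 4 were lower, where 17.0% of all genes were called lower. These 4 included *Uvrag* (−0.87, adjusted p = 0.00425) and *Atg13* (−0.73, adjusted p = 0.0106), which act in autophagy, and *Grb10* (adjusted p = 0.00969), an adaptor that restrains insulin receptor signaling. *Grb10* was 46.6 to 111 in Fnip2C/C and 128 to 204 in Fnip2T/T WAT. *Atg13* was 58.5 to 65.9 in Fnip2C/C and 83.7 to 123 in Fnip2T/T WAT.

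In the amino acid branch that reports to the Rag GTPases, the shares called were near those over all genes for the larger list. In that list, GATOR and KICSTOR, 2 of 11 genes were higher and 2 lower (18.2% each), near the 15.1% and 17.0% of all genes. *Mios*, *Wdr24* and *Sec13* encode subunits of GATOR2, which relieves the inhibition of mTORC1 by GATOR1. On the log2 scale *Mios* rose by 1.14 ± 0.26 (SE, adjusted p = 0.00599), whereas *Wdr24* fell by 2.21 ± 0.38 (SE, adjusted p = 0.00155) and *Sec13* fell by 2.18 ± 0.41 (SE, adjusted p = 0.00236) on that scale. *Wdr24* was 2.34 to 5.88 in Fnip2C/C and 18.9 to 32.0 in Fnip2T/T WAT, low values at which its difference shrank to −1.23 with a pseudocount of 10. *Sec13* was also low, at 8.20 to 14.1 in Fnip2C/C and 27.9 to 119 in Fnip2T/T WAT. Its difference was −1.63 at its smallest over the other settings. *Bmt2*, an S-adenosylmethionine sensor also known as SAMTOR, was the only one of 6 amino acid sensors called (−0.72, adjusted p = 0.0389), and lost its call without any one of mice 590, 593, 599, 607, 657 and 658 (adjusted p = 0.0646 to 0.102). In liver the lowest p-values among the 55 genes were those of *Tsc1* (0.28, p = 0.0331), *Maf1* (0.44, p = 0.0352) and *Telo2* (−0.47, p = 0.0473) by limma, each with an adjusted p = 1.00. *Fnip1* (0.01, adjusted p = 0.975) and *Flcn* (−0.66, adjusted p = 0.138), the partners of the edited gene, did not pass the test in WAT.

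All 10 genes are protein-coding in GENCODE vM21 (GRCm38). *Tsc2* (chr17:24595816-24632630) and *Mlst8* (chr17:24473551-24479078) lie on the same strand of the same chromosome. *Rictor* is at chr15:6708379-6800401, *Rptor* at chr11:119602905-119899576, *Mtor* at chr4:148448611-148557683 and *Eif4ebp1* at chr8:27260329-27276674, all on the plus strand. Directly downstream of *Mtor* on the same strand lies *Exosc10*, which was lower in Fnip2C/C WAT (−0.71, limma adjusted p = 0.0128). *Rptor*, *Rictor*, *Deptor*, *Eif4ebp1* and *Eif4ebp2* had no other annotated gene within 2000 bases of their 3′ ends. RefSeq promoters (250 bases before to 50 after the start, GRCm38.p6) were available for 8 of the 10 genes, all but *Deptor* and *Eif4ebp1*. On either strand, 0 of the 8 held CACGTG, the E-box letters read by TFEB and MYC, or TGATGNAA, letters read by ATF4, which stood in 7.15% and 3.97% of 32851 promoters. These counts say only that the letters are not in these windows. Their GC content ran from 41.7% for *Rptor* to 78.3% for *Rictor*. Only *Rptor* lay below the median of 52.7% over all promoters.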

How the data were processed

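Libraries were made with the QuantSeq 3′ mRNA-Seq FWD kit, a stranded single-read method that samples the tail end of polyadenylated RNA, from 250 ng of liver RNA or 500 ng of WAT RNA per mouse. The labels list 76 run samples, 4 per mouse and tissue, which the authors combined into 1 column for each of 19 libraries. The submitters' processing notes name FastQC 0.11.9, HISAT2, SAMtools 1.12, HTSeq, DESeq2 and build GRCm39; the annotation and the strand setting of the counting were not given in the sources used here. The authors deposited 1 table per tissue, whose signal values are gene read counts divided by 1 size factor per library, each table normalized alone. Every value was a whole multiple of its library's step, so whole reads were recovered for 100% of the values (deviation at most 1.8e-09). They cover reads assigned to genes, without molecular identifiers. In WAT 1 column has no label and was not used.

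Samples were grouped by genotype, tissue and mouse number in the labels. Each tissue was fitted with limma 3.58.1 in R 4.3.3 on log2(normalized count + 1), with genes of mean at least 10, trend and robust options, genotype as the only term and Benjamini-Hochberg adjustment over all genes tested. The difference between tissues was an interaction over all 19 libraries. Ratios were compared with exact two-sided permutation tests (SciPy), adjusted over 6 tests. Fold changes are on the log2(value + 1) scale, and counting errors cover counting alone. Replicates are separate mice. The members and lists were chosen with earlier results of these data known. Other pathway genes were named by p: in WAT up to 3 called genes per list, in liver and for the tissue difference the 3 lowest overall. Alternatives were pseudocounts of 0.5 and 10, no filter or a minimum mean of 50, quantile, total and TMM scaling, library weights, count tests on whole reads with edgeR 4.0.16 (4144 WAT genes called) and DESeq2 1.42.0 (4722 WAT genes called), neither of which called a liver gene, a mouse number term (lower than 610 or higher than 630), a mouse block, each mouse left out and, added after seeing the data, a term for RNA numbers in liver. The mouse block pairs tissues of the same animal; deviations from the group means correlated between its tissues by −0.20 to 0.16. The fits were tested on simulated data.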

Additional observations from a re-analysis of the deposited data

Results flagged for a closer look

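Of the 52 groups of libraries examined (10 genes and 3 ratios in 4 groups), 1 held a library far from the others by Dixon's criterion, where chance alone gives about 1 in 20. It was *Eif4ebp2* in the WAT of Fnip2C/C mouse 590, with a normalized count of 593 against 372 to 395 in the other 3 mice.

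The difference between genotypes was unequal in WAT and liver, by the interaction test with limma, for *Eif4ebp1* (WAT minus liver −0.80, adjusted p = 0.0182) and *Tsc2* (0.76, adjusted p = 0.0188) among the 10 genes. Over the 8 pathway lists, 18 of 54 genes were called in this test (33.3%), against 29.2% of all genes tested. The pathway genes named were picked for low p in 1 tissue or in this test, so their values partly repeat that choice. Of the pathway genes named, the difference was more negative in WAT for *Wdr24* (−2.45, adjusted p = 3.87e-05), *Tti1* (−2.41), *Akt2* (−2.38, adjusted p = 0.000992), *Sec13* (−2.21, adjusted p = 0.00120), *Rheb* (−1.42), *Akt1* (−1.07), *Bmt2* (−0.96), *Tbc1d7* (−0.95, adjusted p = 0.0479), *Atg13* (−0.93) and *Uvrag* (−0.79). It was more positive in WAT for *Mios* (1.38), *Telo2* (1.14), *Eef2* (1.116) and *Pdpk1* (0.93). With the mouse as a fixed block over the 6 mice with both tissues, *Wdr24*, *Tti1*, *Akt2*, *Sec13*, *Mios* and *Pdpk1* were still called. *Eif4ebp1* (adjusted p = 0.370), *Tsc2* (0.0977), *Telo2* (0.101), *Eef2* (0.156), *Uvrag* (0.133), *Bmt2* (0.177), *Rheb* (0.0706), *Atg13* (0.0553), *Akt1* (0.0752) and *Tbc1d7* (0.289) were not. The call of *Akt1* was also lost with quantile normalization (adjusted p = 0.0588) and without mouse 607, 638, 657, 658 or 659 (0.0511 to 0.0842), that of *Eif4ebp1* without mouse 607 or 638 (0.0540 and 0.0555) and that of *Tsc2* without mouse 638 (0.0611). The call of *Tbc1d7* was lost under 8 of the 12 other settings that gave it a value and when any of 10 of the 13 mice was left out (adjusted p up to 0.443 and 0.102).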

How the results depend on the processing

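Log2 differences below are Fnip2C/C minus Fnip2T/T. Among the recomputed values of the 10 genes, 177 in WAT kept their sign and their side of the threshold, 12 lost the call, 3 gained it and 8 changed sign. In liver 198 kept both and 21 changed sign, and for the difference between tissues 252 kept both, 5 lost the call and 2 changed sign. Leaving out each mouse in turn moved the genes called in WAT between 3010 and 4273 and those of the 10 between 0 (without mouse 599, 638, 607 or 658) and 3 (without 590), and for the difference between tissues from 2165 to 3352 and from 0 (without 638) to 2. In liver 0 genes were called under every setting run. With the mouse as a fixed block over the 6 mice with both tissues, 1037 genes, 0 of the 10 and 6 pathway genes were called for the difference between tissues; with a random block 2 of the 10 were called again. A minimum mean of 50 left 10 pathway genes called there, fewer being tested.

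Signs changed only for values near 0. In WAT *Mlst8* turned to 0.069 with quantile normalization and 0.038 with library weights (left-out mice −0.27 to 0.12), and *Rptor* to −0.012 with the same total (left-out mice −0.0057 to 0.12). In liver *Akt1s1* turned to −0.025 with edgeR, −0.019 with DESeq2 and −0.032 with the RNA number term (left-out mice −0.12 to 0.25). Liver *Deptor* turned to −0.0093 with edgeR and −0.0049 with DESeq2 (−0.069 to 0.12), and *Eif4ebp2* to 0.031 with library weights, 0.038 with the mouse number term and 0.0036 with the RNA number term (−0.090 to 0.096). Leaving out mice gave −0.034 to 0.19 for *Mtor* in liver. The tissue difference of *Mlst8* was 0.017 with quantile normalization (−0.38 to 0.014). The Deptor/Mtor ratio was −0.00098 in WAT with a pseudocount of 10 and ran from −0.18 to 0.20 in WAT and from −0.14 to 0.052 in liver without each mouse. On deposited normalized counts in place of CPM, the median log2 of liver over WAT moved to −0.48 for *Rptor*, −0.74 for *Rictor*, 0.51 for *Mlst8*, 0.83 for *Deptor*, −1.10 for *Rps6kb1*, 1.85 for *Eif4ebp2* and −0.60 for *Tsc2*, so that *Mlst8* changed direction. For *Mtor* this median went from −0.91 to −0.40, for *Akt1s1* from −1.73 to −1.13 and for *Eif4ebp1* from −1.75 to −1.31. These 3 shifts were smaller than the SD over mice. Depth limits *Akt1s1* most, at 19 reads in the livers of mice 608 and 658.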
